A study of Mus musculus with 2 samples.

Results

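Erythroid cells are the red blood cell lineage, and they were examined here among single cells of E14 mouse embryos sorted for the tdTomato (tdT) reporter. Cells were selected on measured globin RNA: a barcode was taken as an erythroid cell when at least 30% of its UMIs (unique molecular identifiers, each standing for 1 captured RNA molecule) came from Hba-a1, Hba-a2, Hbb-bs, Hbb-bt, Hba-x and Hbb-y together, and when Pecam1 and Cdh5, markers of endothelium, held no more than 1 UMI in sum. Barcodes under 1000 UMIs or over 10% mitochondrial UMIs had been removed before. The rule kept 287 cells of 22086, with 149 of 9942 in library 1 and 138 of 12144 in library 2.

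The study asked how cells that have expressed Myf5 develop without the splicing factor SRSF2. Myf5-Cre, which is driven by the Myf5 gene of muscle progenitors, both removed the floxed Srsf2 and switched on the tdT reporter at Rosa26, so that cells of both libraries carried Cre and the reporter. The Cre transgene came from C57BL/6J mice, and how many embryos went into a library was not given in the sources used here. One library was titled SRSF2f/f/Myf5-Cre/tdT (both Srsf2 alleles floxed) and the other SRSF2f/w/Myf5-Cre/tdT (1 floxed and 1 wild-type allele), and the embryos had been decapitated and eviscerated before dissociation. The libraries differed in depth, with a median of 8106 UMIs per barcode over 12498 barcodes in library 1 and 9219 over 15268 in library 2.

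Which library carried which genotype was not settled by the sources. The number of barcodes tied library 1 to the sample titled SRSF2f/w/Myf5-Cre/tdT and library 2 to the sample titled SRSF2f/f/Myf5-Cre/tdT, while the names of the deposited summaries and the headings of the study's own summaries gave the opposite. Srsf2 itself was lower in library 1. Over all barcodes within the limits it was at 153 CPM (UMIs scaled to a total of 1000000, 95% interval 151 to 155, exact Poisson) in library 1 and at 219 CPM (216 to 221) in library 2, which goes against the titles. The libraries are therefore called library 1 and library 2, and no difference between them is read as an effect of the genotype. With 1 library for each genotype there was no replicate and no test between them. All intervals below are 95% intervals that cover counting error only.

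Erythroid cells are filled with hemoglobin, which joins alpha-type and beta-type globin chains around heme. In the mouse embryo a first, primitive wave of erythroid cells from the yolk sac carries embryonic globins (Hba-x, Hbb-y and Hbb-bh1), and a definitive wave from the fetal liver carries the adult globins Hba-a1, Hba-a2, Hbb-bs and Hbb-bt. As these cells mature they switch off most genes, make heme, rebuild their membrane around band 3, clear their organelles and lose the nucleus, so that the RNA left in a late cell is dominated by few genes.

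The sequences just upstream of 3 beta-type globin genes and of Alas2, which makes the first enzyme of heme synthesis in erythroid cells, are shown because the globin transcripts chose the cells and told embryonic from adult ones below, and because Alas2 was the main marker that the choice had not used. Each runs 5′ to 3′ on the strand of the gene over the 250 bases before the RefSeq start (build GRCm38.p6). The GENCODE gene spans begin further upstream, so that 168 of the 250 bases of Hbb-bs, 73 of Hbb-bt, 9 of Hbb-y and 42 of Alas2 lie within them. Capitals mark matches on either strand to CACCC (the box known for Klf1), to CCAAT (the box of CCAAT-binding factors), to AGATAA (a site form known for Gata1) and to TATAA (the TATA box), and neighboring or overlapping matches run together.
Hbb-bs, chr7:103827929-103828178, minus strand: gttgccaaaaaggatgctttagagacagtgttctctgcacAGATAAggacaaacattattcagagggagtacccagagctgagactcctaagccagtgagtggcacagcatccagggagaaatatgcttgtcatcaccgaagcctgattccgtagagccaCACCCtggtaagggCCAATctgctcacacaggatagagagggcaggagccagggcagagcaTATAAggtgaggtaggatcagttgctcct
Hbb-bt, chr7:103813924-103814173, minus strand: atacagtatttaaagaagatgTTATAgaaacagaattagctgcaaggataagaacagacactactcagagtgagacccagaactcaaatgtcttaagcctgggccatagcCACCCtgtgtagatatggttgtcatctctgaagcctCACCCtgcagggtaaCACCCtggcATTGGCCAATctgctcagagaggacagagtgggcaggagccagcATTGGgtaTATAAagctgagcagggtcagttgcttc
Hbb-y, chr7:103853208-103853457, minus strand: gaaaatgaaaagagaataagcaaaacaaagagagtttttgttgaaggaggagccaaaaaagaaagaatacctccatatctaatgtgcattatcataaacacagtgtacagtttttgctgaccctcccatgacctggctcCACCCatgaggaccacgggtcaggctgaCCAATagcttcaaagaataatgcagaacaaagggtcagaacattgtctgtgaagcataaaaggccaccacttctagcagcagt
Alas2, chrX:150547167-150547416, plus strand: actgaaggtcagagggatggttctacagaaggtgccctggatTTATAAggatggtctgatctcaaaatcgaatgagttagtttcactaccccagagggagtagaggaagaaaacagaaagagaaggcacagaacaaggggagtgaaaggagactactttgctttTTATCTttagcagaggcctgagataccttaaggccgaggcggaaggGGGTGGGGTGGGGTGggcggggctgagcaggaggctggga
A CACCC match stood before all 4 genes and began 90 bases before the start of Hbb-bs and 111 before that of Hbb-y. A CCAAT match stood before the 3 globin genes, and an AGATAA match only before Hbb-bs and Alas2 among these 4. Of 32851 upstream windows of the same length, 52% held CACCC, 33.8% CCAAT, 9.99% AGATAA and 22.8% TATAA.

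Globin RNA had chosen the cells, so its share is given as a description. The globin share of a member reached a median of 91.1% in library 1 (lowest 34.9%, highest 94.9%) and 89.0% in library 2 (lowest 30.1%, highest 92.7%). Of the 287 members, 248 (86.4%) held at least 80% globin, 21 held 50 to 80% and 18 held 30 to 50%. Just inside the limit, at 30 to 40%, lay 8 members, 2 of library 1 and 6 of library 2, with a median of 3122 genes. Just outside, at 20 to 30% and within the same limit on Pecam1 and Cdh5, lay 8 barcodes, also 2 of library 1 and 6 of library 2, with a median of 4436 genes.

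**Figure D1:**
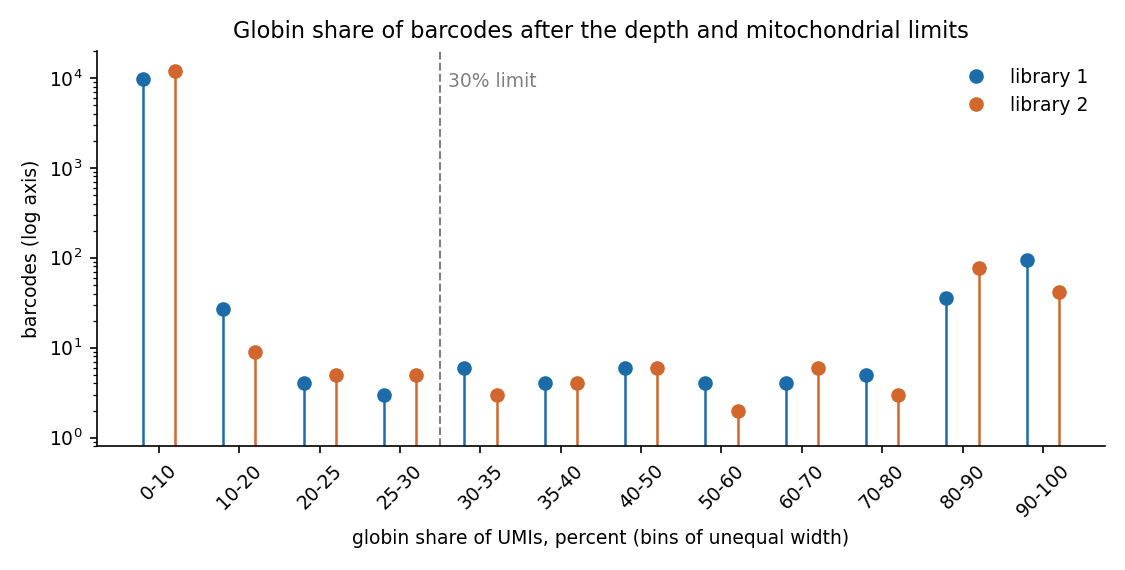
Barcodes per bin of globin share (percent of UMIs, bins of unequal width) on a log axis, for both libraries after the depth and mitochondrial limits and before the Pecam1 and Cdh5 limit. Nearly all barcodes sit under 10%, few lie between 10 and 80%, and a further group lies above 80%, to the right of the dashed 30% limit.

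The typical erythroid cell held much globin and little else. A member had a median of 9582 UMIs in library 1 and 8933 in library 2, close to the 9875 and 10990 of other cells, but it had only 396 and 452 genes against 2918 and 3106. Outside the globin genes the median member held 792 UMIs in library 1 and 959 in library 2. Mitochondrial transcripts made up a median of 0.271% and 0.360% of all UMIs, and 3.08% and 3.07% of the non-globin UMIs, against 3.30% and 3.73% of non-globin UMIs in other cells. Together the members held 1.17% of the UMIs of library 1 and 0.839% of library 2, yet 79.3% and 86.2% of their globin UMIs.

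A smaller set of members looked different. In 23 of 287 (8.01%, exact Clopper-Pearson interval 5.15 to 11.8%), 11 in library 1 and 12 in library 2, more than 3000 UMIs lay outside the globin genes, with a median of 2775 and 3003 genes and a globin share of 30.1 to 77.4%. These 23 members held 45.6% of the members' non-globin UMIs in library 1 and 47.4% in library 2. Among lists of markers of other cell types, the list with the most UMIs was that of fibroblasts and mesenchyme in 15 of them (16 to 245 UMIs a barcode), that of cartilage in 6 (16 to 208), that of bone in 1 (39) and that of skeletal muscle in 1 (92). The muscle one, in library 2, held 85 UMIs of Actc1, 32 of Mylpf, 21 of Myog and 14 of Tnnt1 beside a globin share of 35.2%. Because of them, values below are given for all 287 members and, where it matters, for the 264 with up to 3000 non-globin UMIs. No doublet caller was run, and whether these barcodes held more than 1 cell was not tested.

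**Figure D2:**
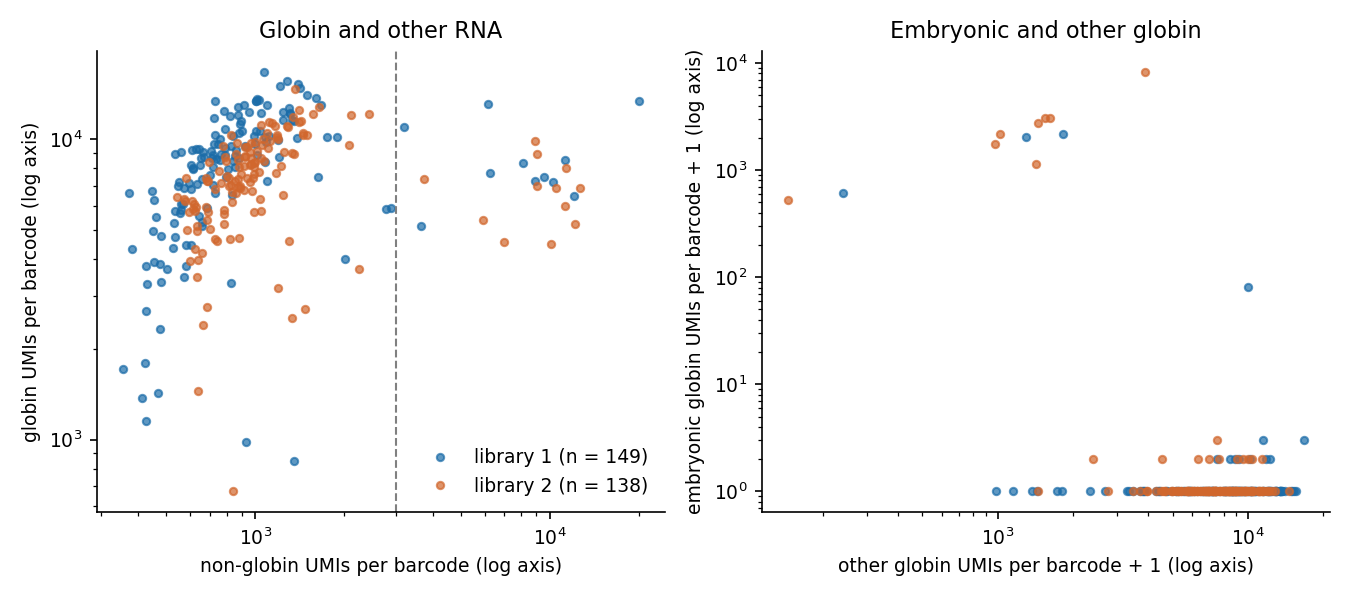
Each point is an erythroid cell of library 1 (n = 149) or library 2 (n = 138), on log axes. Left, globin against non-globin UMIs, with the 23 barcodes above 3000 non-globin UMIs to the right of the dashed line. Right, embryonic against other globin UMIs (each + 1), with 11 members at the upper left and the rest near 0 apart from 1 member of library 1, at 0.791% of its globin.

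The adult globins made up nearly all globin RNA. Hbb-bs (chr7:103826534-103828096, minus strand) held 48.9% of the members' globin UMIs in library 1 and 46.0% in library 2, and Hbb-bt (chr7:103812524-103813996, minus strand) 19.7% and 20.2%. Hba-a1 (chr11:32283511-32284465, plus strand) held 17.4% and 17.5%, and Hba-a2 (chr11:32296489-32297298, plus strand) 13.6% and 14.2%. All 4 had UMIs in every member. The order was the same in both libraries, from Hbb-bs over Hbb-bt and Hba-a1 to Hba-a2. Hba-a1 and Hba-a2 encode near-identical chains, as do Hbb-bs and Hbb-bt, so that the split within each pair, and the pair sums where reads shared by both genes were dropped, can depend on how reads were assigned. In the 276 members with adult globin, alpha-type transcripts made up a median of 31.1% of alpha-type and beta-type UMIs, with an SD of 3.71 percentage points across members and a range of 20.2 to 46.1%.

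Hbb-bt took a median of 29.1% of the Hbb-bs and Hbb-bt UMIs of these 276 members, and the range reached from 2.09 to 41.3%. It exceeded Hbb-bs in 0 of them. In 17 of them, 11 in library 1 and 6 in library 2, Hbb-bt stayed under 15%, and these 17 were also shallow, with a median of 2819 and 4706 UMIs against 9870 and 9197 in the other adult-globin members. The part of depth in this was not tested. Of the minor genes, Hbq1a, a theta-type globin, had 14 and 23 UMIs, Hbq1b had 3 and 6, and Hbb-bh2 had 0 in both libraries.

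Embryonic globins were carried by few cells rather than by all cells at a low level. Summed over members, Hba-x, Hbb-y and Hbb-bh1 made up 0.392% of the globin UMIs in library 1 and 2.18% in library 2. Without the Pecam1 and Cdh5 limit the shares were 0.784% and 2.12%. Of the 27609 embryonic UMIs of the members, 27506 lay in 11 members (3.83%, interval 1.93 to 6.75%), 3 of library 1 and 8 of library 2. In these, the embryonic genes took 44.2 to 78.6% of the globin UMIs. In the other 276 members they took at most 0.791%, and 255 of the 276 had no embryonic UMI at all. No member lay between 0.791% and 44.2%.

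The 11 cells held Hbb-y and Hba-x in different proportions. Among the 3 of library 1, Hbb-y, the embryonic beta-type chain, had 358, 1425 and 1552 UMIs and Hba-x, the embryonic alpha-type chain, 250, 591 and 601. Among the 8 of library 2, Hbb-y ranged from 113 to 6846 UMIs and Hba-x from 55 to 1424. Hba-x exceeded the sum of Hba-a1 and Hba-a2 in 2 of the 11, while Hbb-y took 76.3 to 97.3% of all beta-type UMIs in every one. Hba-x took a median of 32.2% of all alpha-type UMIs (4.18 to 74.9%), so that the beta-type RNA of these cells was mostly embryonic and the alpha-type RNA mostly adult. Hbb-bh1, the gene of the earliest yolk sac cells, had 23 UMIs or fewer in each and 0 in 5. Of its 137 UMIs over all members, 83 lay in 4 of the 276 adult-globin members, 82 of them in 3 members of library 1. Most of these lay in 1 cell, since 1 adult-globin member of library 1 held 80 embryonic UMIs. Hba-x and Hbb-y had only 4 and 5 UMIs over all adult-globin members of that library. Among the adult beta genes, Hbb-bt exceeded Hbb-bs in 6 of the 11. These differences follow in part from how the 11 were picked and are given without a test.

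The 3 of 149 in library 1 correspond to 2.01% (0.417 to 5.77%) and the 8 of 138 in library 2 to 5.80% (2.54 to 11.1%), so that the intervals overlap. The 11 cells had 371 to 703 genes and 1514 to 14571 UMIs, and none was among the 23 with more than 3000 non-globin UMIs. In other cells with under 20 globin UMIs, embryonic genes made up 2.90% of globin UMIs in library 1 and 2.42% in library 2.

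Beside globin, the 11 cells differed from the 253 adult-globin members with up to 3000 non-globin UMIs, which hold 14306 and 228190 non-globin UMIs. Levels here and below are CPM over non-globin UMIs only, since globin would otherwise set every other value. Of genes high in the adult-globin members, Mkrn1, a ubiquitin ligase, was at 280 against 7020 CPM (log2 ratio −4.65, interval −6.53 to −3.29), Slc25a37, the mitochondrial iron importer, at 140 against 2182, and Gpx1, a peroxidase, at 1049 against 10859. Alas2 was at 1188 against 6148 CPM (−2.37, −3.16 to −1.69). In the 11 cells these levels rest on few UMIs. Mkrn1 had 4, and Slc25a37 had 2, under a floor of 3 UMIs or 210 CPM. Gpx1 had 15 UMIs in 4 cells and Alas2 17 in 6 cells, each with 7 in 1 cell. Fth1, a ferritin chain, was higher at 37187 against 27363 CPM (0.44, 0.31 to 0.57), with 165 of its 532 UMIs in 1 cell. For several other erythroid genes, mostly with few UMIs in the 11 cells, the interval of the log2 ratio held 0. For example, Ftl1 was at 35649 against 33634 CPM (0.08, −0.05 to 0.21), Slc4a1 at 769 against 416, with 11 UMIs in 3 of the 11 cells, and Epb41 at 979 against 1161, with 10 of its 14 UMIs in 1 cell. Malat1, a nuclear RNA, was at 47812 against 9970 CPM (2.26, 2.14 to 2.39) and was found in all 11, with 255 of 684 UMIs in 1 cell. Nudt4 was at 5033 against 548, but 51 of its 72 UMIs lay in 1 cell.

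The label was then checked against its other defining markers, which the rule had not used. Alas2 had a UMI in 133 of 149 members (89.3%) of library 1 and in 122 of 138 (88.4%) of library 2, against 0.735% and 0.358% of other cells, which had a like total depth. Slc4a1, the anion exchanger band 3, had a UMI in 20.8% and 23.9% of members against 0.153% and 0.167% of other cells. These 2 markers thus stood far above their level in other cells in both libraries. Hba-a1 and Hbb-bs, which the rule used and which therefore say nothing on the label, had a median of 1420 and 4228 UMIs per member in library 1 and of 1262 and 3566 in library 2, and a median of 0 in other cells.

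The erythroid lists, 90 genes in all with 8 of progenitors among them, were set against other cells. A minimum of 50 UMIs in erythroid cells alone lets a gene in mainly by being high there, so the lists were first read with the minimum taken over erythroid and other cells together. Of 17254 non-globin genes that passed it, 333 (1.93%) were more than 2-fold higher in erythroid cells in both libraries and 5934 (34.4%) more than 2-fold lower. Of the 82 listed erythroid genes that passed, 37 were higher, 9 were lower and 36 were neither. The 9 lower ones were the progenitor genes Itga4, Spi1, Kit, Gata2 and Myb, the signal genes Epor and Stat5a, Slc11a2, an iron transporter, and Gata1. Of these, Itga4, Spi1, Myb, Epor, Stat5a and Gata1 had 0 UMIs in members. Many genes had few or no UMIs in the small erythroid set, so that the count of lower genes also depends on depth. With the 264 members with up to 3000 non-globin UMIs, 39 of 82 were higher and 12 lower, against 345 (2%) and 9189 (53.3%) of 17252 genes.

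With the minimum taken in the members alone, 1126 genes passed, of which 115 (10.2%) were more than 2-fold higher and 0 (0%) more than 2-fold lower, and the median log2 ratio to other cells was −0.21 in both libraries. Of the 90 listed genes 84 had a UMI and 30 passed in this way. The exception to the higher level among these 30 was Pcbp1, an iron chaperone of many cell types. Among the 264 members 519 genes passed, of which 135 (26%) were higher and 38 (7.32%) lower. The filter bounded all of these counts, and none is read as support. The plot of levels shows 28 of the 30 genes, with Pcbp1 among them and without Bcl2l1.

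**Figure D3:**
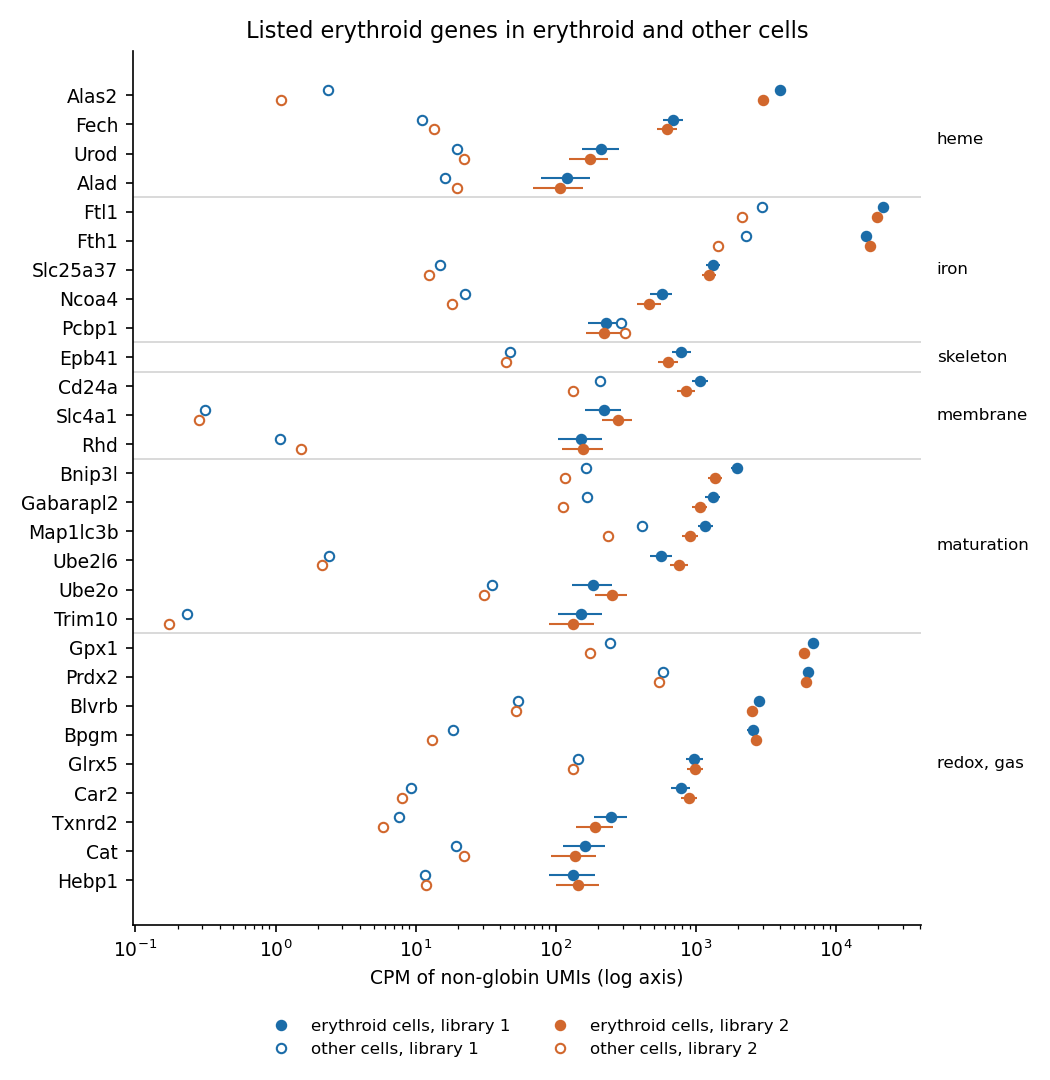
Level of 28 listed erythroid genes with at least 50 UMIs in members, as CPM over non-globin UMIs on a log axis. Filled points are erythroid cells (bars, exact Poisson 95% intervals), open points other cells, and colors the libraries. Filled points lie to the right of open points for every plotted gene except Pcbp1, and the libraries lie close together.

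Heme synthesis was led by Alas2. It was at 3994 CPM (872 UMIs) in library 1 and 2991 CPM (704 UMIs) in library 2, against 2.37 and 1.09 in other cells, a log2 ratio of 10.72 (10.52 to 10.91) in library 1. Fech, which inserts iron in the last step of the pathway, was at 683 and 620 CPM against 11.1 and 13.6. Urod was at 211 and 174, and Alad at 119 and 106. With the minimum over all cells, 5 of the 8 listed genes were more than 2-fold higher in both libraries and 0 were lower. Ppox, Uros and Cpox were neither. Of all genes, 1.93% were higher and 34.4% lower.

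Iron handling was dominated by storage and mitochondrial import. The ferritin chains Ftl1 (21717 and 19509 CPM) and Fth1 (16280 and 17572 CPM) were the most abundant listed genes outside globin, against 2955 and 2123 and against 2288 and 1425 CPM in other cells. Slc25a37 was at 1333 and 1241 CPM against 15.01 and 12.4, and Ncoa4, which directs ferritin to degradation, at 568 and 463 against 22.6 and 18.1. Tfrc, the transferrin receptor that early erythroid cells carry in quantity, was scarce by contrast. It had a UMI in 5 of 149 members of library 1 and in 3 of 138 of library 2. In other cells, which held far more non-globin UMIs, it had one in 24.4% and 28.4%. Its 22.9 CPM in library 1, with at most 1 UMI in a member, lay near the 31.8 of other cells. Of the 12 listed iron genes 4 were higher, 1 was lower and 7 were neither, against 1.93% of all genes higher and 34.4% lower.

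At the membrane, Slc4a1 was at 220 and 276 CPM against 0.316 and 0.286 in other cells, Rhd at 151 and 157 against 1.07 and 1.52, and Cd24a at 1072 and 850 against 206 and 134. Of 11 tested genes of transport and blood groups 6 were higher and 0 lower, against 1.93% and 34.4% of all genes. The membrane skeleton was thinner in RNA, since of 9 listed genes only Epb41, or protein 4.1, reached 50 UMIs in erythroid cells, at 788 and 629 CPM against 46.9 and 44.1. Of 7 tested skeleton genes 3 were higher and 0 lower, against the same shares of all genes.

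Genes of organelle clearance and protein turnover were high. Bnip3l, the receptor that removes mitochondria, was at 1956 and 1372 CPM against 164 and 116, Gabarapl2, an autophagy protein, at 1315 and 1062 against 167 and 113, and Map1lc3b at 1168 and 909 against 410 and 237. Ube2l6 was at 563 and 761 against 2.41 and 2.15, and Trim10 at 151 and 132 against 0.235 and 0.173. Ube2o, a ubiquitin enzyme of reticulocytes, was at 183 and 251 against 35.3 and 30.8. Of 9 tested genes of the list 6 were higher and 0 lower, against 1.93% and 34.4% of all genes. Ulk1, Fbxo7 and Xpo7 were neither.

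In the redox and gas exchange list all 9 tested genes of 10 were higher, against 1.93% of all genes. The median log2 ratio was 4.795 and 5.04. Gpx1 was at 6789 and 5872 CPM and Prdx2, or peroxiredoxin 2, at 6317 and 6084. Blvrb, biliverdin reductase B, was at 2835 and 2498, Bpgm, which makes the effector that lowers the oxygen affinity of hemoglobin, at 2533 and 2681, and Car2, carbonic anhydrase, at 779 and 892. In other cells these genes ranged from 7.92 CPM for Car2 in library 2 to 586 CPM for Prdx2 in library 1.

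The 15 non-globin genes with the highest ratio to other cells in the lower of both libraries included Tspo2, Alas2, Slc4a1, Rec114, Ube2l6, Bpgm, Fam210b, Slc25a37, Car2, Mkrn1, March2 and Blvrb. Tspo2, an erythroid relative of the mitochondrial translocator protein, was at 591 and 552 CPM against 0.219 and 0.199. Mkrn1 was at 4146 and 3492 against 65.3 and 40.1. The 23 barcodes with much other RNA held 6.20 to 14.2% of the UMIs of each of the 15, for example 82 of 872 for Alas2 in library 1.

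Regulators and early genes were scarce. Of 12 listed erythroid transcription factors 11 had a UMI and 0 reached 50. Compared with other cells, 3 of 10 tested ones were nevertheless more than 2-fold higher in both libraries and 1 was lower (minimum over all cells). Of all genes, 1.93% were higher and 34.4% lower. Among the 264 members 5 of 10 were higher and 1 was lower, against 2% and 53.3%. These counts rest on few UMIs per gene. Gata1, the master factor of the lineage, had 0 UMIs in both libraries, under a floor of 3 UMIs or 13.7 CPM in library 1 and 12.7 in library 2. Klf1, which drives the adult beta-globin gene, had 2 and 3 UMIs, Nfe2 2 and 1, and Tal1 1 and 2. Summed over both libraries the most abundant was Klf3 with 13 and 27, followed by Lmo2 with 14 and 11, but among the 264 members Lmo2 with 12 and 11 stood before Klf3 with 11 and 9. In the erythropoietin path Epor, the receptor, had 0 UMIs in both libraries, and only Bcl2l1, a survival factor of late erythroblasts, reached 50, at 101 and 119 CPM against 20.9 and 15.6. Of 8 progenitor genes 0 reached 50 UMIs. Myb, Spi1 and Itga4 had 0 UMIs in both libraries, Kit had 1 and 0, and Gata2 had 1 and 0. At a median of 792 and 959 non-globin UMIs a cell, an absence of these genes from single cells could not be told from a low level.

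RNA of other cell types was present in the members as well. All 90 markers of 15 other cell types together held 0.697% of the non-globin UMIs in library 1 and 0.596% in library 2 in the 264 members with up to 3000 non-globin UMIs, against 1.33% and 1.34% in other cells. Of these 90 genes 60 had a UMI in the 287 members. With the minimum over all cells, 0 of 85 tested were more than 2-fold higher than in other cells and 44 were lower, against 1.93% and 34.4% of all genes. Among the 264 members 0 were higher and 51 lower, against 2% and 53.3%. The lower genes include Pecam1 and Cdh5, which the rule had limited, and genes with 0 UMIs in members. These counts are therefore not read as support. Over all 287 members Col2a1 of cartilage was at 1480 and 1151 CPM, Col3a1 of fibroblasts at 1200 and 1521, and Col1a1 of fibroblasts and bone at 1049 and 1304. Among the 264 members Col2a1 was at 1616 and 1552 CPM, but Col3a1 was at 581 and 461 and Col1a1 at 648 and 534, so that much of the RNA of these 2 genes lay in the 23 other barcodes. Defining markers of megakaryocytes and platelets and of hepatocytes were at 0 UMIs in both libraries, for all 6 and all 5 listed genes. Macrophage genes held 25 UMIs in library 1, led by C1qb with 10, and 0 in library 2.

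Set against barcodes that were too shallow to count as cells, most erythroid lists were far higher and most other lists were not. Barcodes with under 1000 UMIs and under 30% globin held 523 non-globin UMIs on average in library 1 and 617 in library 2, and the 264 members 861 and 982. The erythroid lists together gave 104 UMIs per member against 3.75 per shallow barcode in library 1, or 27.7-fold (26.9 to 28.6), and 118 against 3.70 in library 2, or 31.9-fold (31.0 to 32.8). The iron list supplied 7589 of these 14331 UMIs in library 1 and 8129 of 14830 in library 2. Other cells held 113 and 83.2 UMIs of the erythroid lists per barcode, among an average of 12609 and 12544 non-globin UMIs. Heme synthesis stood highest with 151-fold and 96.0-fold, followed by redox and gas exchange with 61.1-fold and 61.4-fold. Erythroid transcription factors were at 2.47-fold and 3.43-fold. The markers of other cell types include Pecam1 and Cdh5, which the rule had limited, in an endothelium list of 9 and 2 UMIs. Together these markers gave 6.00 UMIs per member against 7.49, or 0.801-fold (0.746 to 0.860), and 5.85 against 6.78, or 0.863-fold (0.8001 to 0.929). The macrophage list went against this in library 1, at 7.56-fold (4.37 to 12.85) with 25 UMIs, and had 0 UMIs in library 2. Among other lists, that of Schwann cells in library 1 lay above 1.06-fold (1.53-fold, 2 UMIs). In library 2 those of lymphoid cells (2.67-fold, 1 UMI), epidermis (1.17-fold, 6 UMIs), mast cells (1.165-fold, 4 UMIs) and sex-linked genes (1.24-fold, 14 UMIs) did. All these intervals hold 1. Early response genes such as Fos and Jun gave 0.960-fold and 0.837-fold, cell cycle genes 0.898-fold and 0.912-fold, the genes of SR splicing proteins 1.03-fold and 0.897-fold, and progenitor genes 1.06-fold and 0.817-fold. Counted per barcode, the intervals of these 4 lists held 1, except for early response genes in library 2 (0.732 to 0.953). These counts were not scaled to the larger non-globin total of the members. The ratios of progenitor genes rest on 13 and 10 UMIs.

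**Figure D4:**
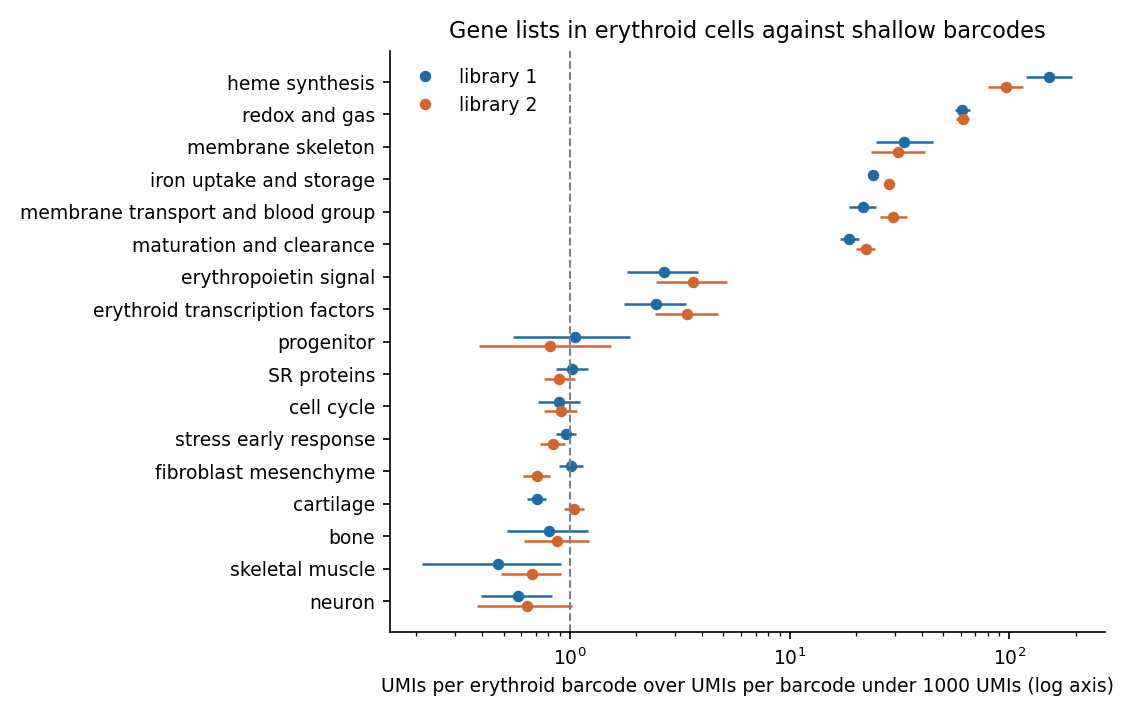
Ratio of the UMIs per erythroid cell with up to 3000 non-globin UMIs to the UMIs per barcode under 1000 UMIs, for gene lists in both libraries on a log axis (bars, exact 95% intervals of the ratio, counting error only). Heme synthesis, redox, membrane skeleton, iron, membrane transport and maturation lie from 18.7 to 151-fold, and erythropoietin signal and transcription factors from 2.47 to 3.62-fold. The plotted lists of other cell types (fibroblasts, cartilage, bone, muscle, neurons), progenitors, cell cycle, early response and SR proteins lie from 0.472 to 1.06-fold, with the dashed line at 1. Bars lie wholly below 1 for muscle in both libraries, for cartilage and neurons in library 1, and for fibroblasts and early response in library 2.

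Listed cell cycle genes did not stand above other cells, while 3 mitotic genes outside the list did. All 12 listed ones had UMIs, and with the minimum over all cells 0 of 12 were past 2-fold in either direction in both libraries, against 1.93% of all genes higher and 34.4% lower. Among the 264 members 1 of 12, Top2a, was lower, against 53.3%. Top2a had 19 and 38 UMIs and Mki67 7 and 23. Ube2c, a mitotic ubiquitin enzyme, was higher, at 925 and 1071 CPM against 103 and 159 in other cells, with a UMI in 72 of 149 and in 83 of 138 members. Nusap1, a protein of the mitotic spindle, was at 399 and 297 CPM against 41.9 and 72.7, and Cdc25b, a phosphatase of mitotic entry, at 109.9 and 166 against 5.26 and 11.9. These 3 genes are outside the list and were named after their values had been seen.

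Srsf2 (chr11:116849901-116853094, minus strand), the gene that the study deleted, had 31 UMIs in the members of library 1, or 142 CPM (96.5 to 202), and 46 in library 2, or 195 CPM. The log2 ratio of library 2 over library 1 was 0.46 (−0.23 to 1.17), an interval that holds 0. Over all UMIs, globin included, it was 0.77 (0.08 to 1.48), which does not hold 0. In other cells it was at 155 and 220 CPM. Without the 23 barcodes above 3000 non-globin UMIs there remained 16 and 22 UMIs, which is 0.116 UMI per member in library 1 against 0.0795 per shallow barcode (1.46-fold, 0.809 to 2.46) and 0.175 against 0.113 in library 2 (1.54-fold, 0.946 to 2.39). Both intervals hold 1, so that a level above that of shallow barcodes was not detectable at this depth. Mettl23 and Mfsd11, which overlap Srsf2 on the opposite strand, had 4 and 6 and 1 and 4 UMIs. With the minimum over all cells, 0 of the 10 listed SR protein genes were more than 2-fold higher or lower in erythroid cells in both libraries, against 1.93% and 34.4% of all genes, but 3 of the 10 (Srsf11, Srsf9 and Srsf1) were lower among the 264 members, against 53.3%.

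The share of erythroid cells was 1.499% (1.27 to 1.76%) of the cells in library 1 and 1.14% (0.956 to 1.34%) in library 2. The log2 ratio of library 2 over library 1 was −0.40 (−0.74 to −0.06), and its interval reached past 0 with a mitochondrial limit of 5% (−0.66 to 0.03) and without members rich in markers of other cell types (−0.72 to 0.01). The interval covers counting error only. Whether and how sorting and washing carried red cells into each library was not measured. A difference between genotypes therefore cannot be told apart from a difference between preparations.

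Few genes within erythroid cells were past 2-fold between the libraries. Of 1126 non-globin genes with at least 50 UMIs, 22 (1.95%) were more than 2-fold higher in library 2 and 16 (1.42%) more than 2-fold lower. Over 13 alternatives the number past 2-fold, 38 here, ranged from 9 of 575 tested genes to 246 of 2689. Of the 30 listed erythroid genes that passed 0 were past 2-fold, which is near the shares of all genes. Among the erythroid lists some smaller differences went past counting error over all members. Heme synthesis was at 5149 and 4100 CPM in sum (log2 ratio −0.33, −0.45 to −0.20), maturation at 5405 and 4588 (−0.24, −0.36 to −0.12), redox and gas exchange at 20778 and 19488 (−0.09, −0.15 to −0.03) and membrane transport and blood groups at 2950 and 2634 (−0.16, −0.32 to −0.002). The iron list was at 40177 and 39087 CPM (−0.04, −0.08 to 0.003) and the progenitor list at 119 and 187 (0.65, −0.08 to 1.41). Among the 264 members heme synthesis (−0.29, −0.42 to −0.15) and maturation (−0.14, −0.27 to −0.007) kept an interval below 0, while those of redox (0.02, −0.05 to 0.08) and membrane transport (−0.11, −0.28 to 0.06) held 0. The progenitor list turned to −0.44 (−1.79 to 0.87) there, with 13 and 10 UMIs. Without the members with embryonic globin the interval of the iron list lay below 0 (−0.11, −0.15 to −0.07). The median log2 ratio over all tested genes was −0.02. The scale matters here. Globin took 85.1% of the members' UMIs in library 1 and 81.6% in library 2, and taken over all UMIs the log2 ratio of every non-globin gene would be higher by 0.31. On that scale heme synthesis was at −0.02 (−0.14 to 0.11). The log2 ratios of maturation (0.07, −0.05 to 0.19) and membrane transport (0.15, −0.02 to 0.31) turned positive with intervals that held 0. The interval of redox, below 0 before, now lay above 0 (0.22, 0.16 to 0.28). Those of the iron list (0.27, 0.23 to 0.31) and the progenitor list (0.96, 0.23 to 1.72) also lay above 0.

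**Figure D5:**
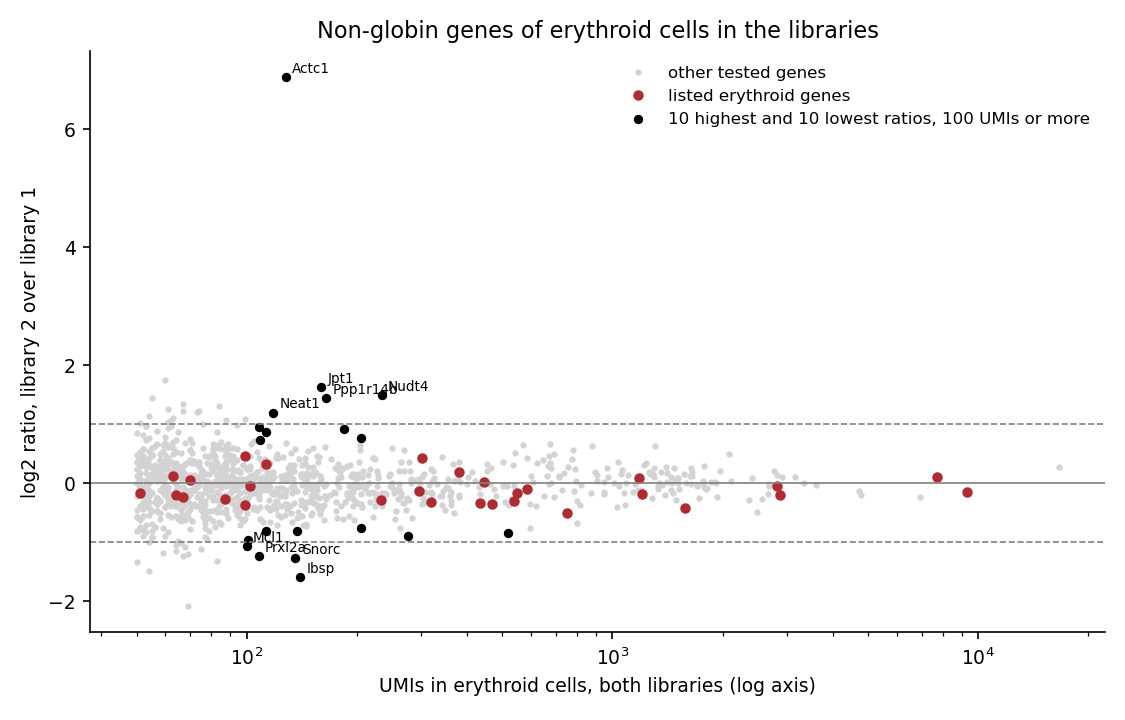
Log2 ratio of library 2 over library 1 in erythroid cells against the UMIs of each non-globin gene in both libraries (log axis), with dashed lines at 2-fold. Red points, the listed erythroid genes, lie between the dashed lines, and black points are the 10 highest and 10 lowest ratios among genes with at least 100 UMIs, with a name where they pass 2-fold. Tnnt2, with 0 UMIs in library 1 and 50 in library 2, has no finite ratio and is not drawn.

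Among genes with at least 100 UMIs in members, the 10 highest ratios of library 2 over library 1 were those of Actc1, Jpt1, Nudt4, Ppp1r14b, Neat1, Ndufb7, Tuba1b, Ptges3, Id3 and Svbp, of which 5 were past 2-fold. Actc1, cardiac actin of embryonic muscle, had 1 UMI in library 1 and 127 in library 2, and 85 of the 127 lay in the muscle barcode described above. Among the 264 members it had 0 and 41 UMIs. Actc1 was also at 37.0 and 424 CPM in other cells. Nudt4 had 58 and 176 UMIs, and 71 of the 176 lay in the 8 cells with embryonic globin. Jpt1, a cytoskeletal regulator, was at 170 and 523 CPM (log2 ratio 1.62) with a UMI in 23 and 66 members, and among the 264 members with up to 3000 non-globin UMIs it was at 219 and 639. In other cells Jpt1 was at 174 and 197 CPM.

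The 10 lowest ratios were those of Ibsp, Snorc, Prxl2a, Mcl1, Sox4, Col9a3, Fos, Rcn3, Ctsl and Fosb, of which 4 were past 2-fold. Ibsp, a bone matrix gene, had 103 and 37 UMIs, and 77 of the 103 lay in 2 barcodes. Without the 23 barcodes rich in other RNA it was at 194 and 299 CPM, which turned its direction. Of the 325 and 194 UMIs of Fos, 271 and 156 lay in those 23 barcodes. Prxl2a, a peroxiredoxin-like protein, was at 339 and 145 CPM (log2 ratio −1.23) in all members, at 564 and 243 in the 264, and at 22.7 and 16.2 in other cells. Among the 264 members, 519 genes had at least 50 UMIs, of which 6 (1.16%) were more than 2-fold higher in library 2 and 10 (1.93%) more than 2-fold lower. Jpt1 and Prxl2a, unlike Ibsp, thus kept their direction without the barcodes with much RNA of other cell types.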

How the data were processed

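Single cells of E14 embryos were sorted for tdT and sequenced with the 10x Genomics 3′ chemistry as 1 library per genotype. The authors deposited raw UMI counts of 32285 genes, obtained with Cell Ranger (5.0.0 in the header of the matrix, 3.1.0 in the submitters' processing notes, which also name STAR and Seurat 3.1.1) on mm10 and aggregated after down-sampling of reads. Before this, the summaries list 575393483 reads for library 1 and 571426356 for library 2. Libraries were read from the barcode suffix. The libraries shared 74 barcode sequences, 3 of them members of library 1 and 0 members of both.

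Members, gene lists and named genes were chosen with earlier results of these data known. Named genes are those of the lists, Srsf2 and the genes that overlap it. Others are the 15 with the highest ratio to other cells in the lower of both libraries and the 10 highest and 10 lowest library ratios, each with at least 100 UMIs. A few more were named after their values were seen (Ube2c, Nusap1, Cdc25b, Malat1, Tnnt2, Gm42418, AY036118). UMIs were summed over members and divided by non-globin UMIs. Globin genes were 10 listed genes. Shares have exact Clopper-Pearson intervals, levels exact Poisson intervals, and ratios exact intervals from the split of their counts, at 95%. A floor is 3 counts. Reads behind UMIs and free RNA are not independent of the preparation, so that intervals and floors cover counting error only. Some of these genes are counted but not reported here by name. No doublet caller was used. Gene positions are from GENCODE on GRCm38, in which 99.6% of the gene identifiers were found. The ratio and interval steps were tested on simulated data. Python 3.11.15, NumPy 2.4.6, SciPy 1.17.1, pandas 2.3.3 and matplotlib 3.10.9 were used. Alternatives varied the globin share, the UMI and mitochondrial limits, the Pecam1 and Cdh5 limit, the markers of other cell types, the denominator and the gene minimum, and others, added after seeing the data, kept only members with up to 3000 non-globin UMIs or with under 10% embryonic globin, or took the minimum of 50 UMIs per gene over members and other cells together.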

Additional observations from a re-analysis of the deposited data

Results flagged for a closer look

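Barcodes outside the limits held globin too. In library 1, 3 barcodes had at least 30% globin UMIs but failed the limit of 1000 UMIs, with 673 to 787 UMIs and a median globin share of 42.8%, and none failed the mitochondrial limit. In library 2 there were 0 such barcodes. None of the 3 had embryonic globin above 50% of its globin UMIs. They were noticed as a signal in barcodes that the comparisons did not use.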

How the results depend on the processing

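No paired analysis was possible because each genotype had 1 library. The log2 ratio of erythroid shares, −0.40, ranged from −0.56 to −0.31 over 9 alternatives, its interval holding 0 in 2 of them (a mitochondrial limit of 5% and members poor in other markers), and the share of library 1 from 1.33 to 1.71%. The share of library 2 moved to 1.38% with a mitochondrial limit of 5%. The number of genes past 2-fold between the libraries, 38 of 1126 tested, varied most, and the number of tested genes varied with it. It was 104 of 1646 with a globin limit of 20%, 25 of 612 with 50% and 114 of 1691 without the Pecam1 and Cdh5 limit. With at least 20 or 100 UMIs per gene it was 246 of 2689 and 9 of 575. Among members with up to 3000 non-globin UMIs it was 16 of 519. The embryonic share of globin UMIs in library 1, 0.392%, was 0.358% with a globin limit of 50%, 0.784% without the Pecam1 and Cdh5 limit, 0.435% without members rich in markers of other cell types and 0.425% with up to 3000 non-globin UMIs. In library 2, 2.18% became 2.11% and 2.27% with globin limits of 20 and 50%, 2.135% with at least 2000 UMIs, 2.12% without the Pecam1 and Cdh5 limit, 2.39% without members rich in other markers and 2.37% with up to 3000 non-globin UMIs. The members with mostly embryonic globin numbered 2 to 4 in library 1 and 6 to 7 in library 2. The log2 ratio of Srsf2 in erythroid cells was 0.46 (interval −0.23 to 1.17) and ranged from 0.20 to 0.77 over 11 alternatives, the highest with all UMIs as denominator (0.08 to 1.48) and with an interval that did not hold 0. With all UMIs as denominator the log2 ratios of the lists of iron (0.27), membrane skeleton (0.149), membrane transport (0.15), erythropoietin signal (0.22), maturation (0.073) and redox (0.217) turned positive, and with up to 3000 non-globin UMIs the lists of redox (0.018), iron (0.041), erythroid transcription factors (−0.12) and progenitors (−0.437) changed sign. The interval of iron, which held 0, lay below 0 without members with embryonic globin (−0.11) and above 0 with all UMIs, as did that of progenitors with all UMIs (0.96). The interval of redox went from below 0 (−0.15 to −0.03) to above 0 (0.16 to 0.28) with all UMIs. The interval of membrane transport, which did not hold 0, held it under all 4 alternatives. Causes of these changes were not tested. A median of 792 and 959 non-globin UMIs per cell limited every statement on single cells, and levels of genes under 50 UMIs rest on few molecules.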

Other observations

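Globin RNA was also found with endothelial markers. Outside the erythroid cells, 67 barcodes of library 1 and 31 of library 2 held at least 100 globin UMIs. Those with 30% globin or more are outside only through the Pecam1 and Cdh5 limit, and without them 57 and 27 remained. Of these, 48 (84.2%) and 12 (44.4%) had 2 or more UMIs of Pecam1 and Cdh5, at a median of 30498 and 29083 UMIs. Among barcodes with under 20 globin UMIs and at least 20000 UMIs in all, with medians of 26544 and 24576, the shares were 30.8% and 9.39%. In 8 and 3 of the 67 and 31 the embryonic genes took more than 50% of the globin UMIs. The 14 barcodes with at least 30% globin that the Pecam1 and Cdh5 limit removed, 10 and 4, had a median of 10 UMIs of these genes in each library.

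Gm42418 and AY036118, which overlap ribosomal RNA sequence, were high in erythroid cells. Gm42418 was at 33004 and 39839 CPM against 4842 and 6217 in other cells, and AY036118 at 1507 and 2341 against 136 and 274.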
